A study of Mus musculus with 2 samples.

Results

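Germ cells of the fetal mouse testis were selected on measured values for a high summed level of 20 transcripts that the transcription factor p53 is known to activate. The rule took every germ cell with 10 or more UMIs (unique molecular identifiers, each a counted transcript molecule) per 10000 of its UMIs over Aen, Bbc3, Ccng1, Cdkn1a, Btg2, Mdm2, Phlda3, Plk2, Sesn1, Sesn2, Tigar, Zmat3, Ei24, Polk, Perp, Eda2r, Gdf15, Rps27l, Pmaip1 and Trp53inp1. At E12.5 it held for 2392 of 2494 germ cells (95.9%, with an exact binomial 95% interval of 95.1 to 96.7%), and for 2069 of 2549 at E13.5 (81.2%, 79.6 to 82.7%), or 4461 of 5043 in all. The rule therefore chose most germ cells and not a set apart, because 1 gene, Rps27l, supplied 71.9% of the 20-gene UMIs in the E12.5 library and 69.9% in the E13.5 library. Without Rps27l, the other 19 genes alone reached the threshold in 113 E12.5 cells (4.53%, 3.75 to 5.42%) and 21 E13.5 cells (0.824%, 0.511 to 1.26%). All of these are members by the rule. They are called target-rich below, a subset defined after the values had been seen.

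The cells were male germ cells from CD1 embryos, an outbred strain, sorted for the fluorescence of an Oct4GFP reporter of the germ cell and pluripotency gene Pou5f1, and profiled with 10x v2 droplet chemistry. Embryonic day is abbreviated E, and 1 library was made of E12.5 and 1 of E13.5 cells, both untreated as far as the labels say, with no embryo, litter or pool named. The 1 library per stage means that stage and library cannot be told apart, that there is no replicate check and that no test was made. Each interval given here is an exact 95% interval for counting error only.

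The protein p53 is held at a low level by Mdm2 and Mdm4 and accumulates after DNA damage, chromosome missegregation, ribosomal or metabolic stress. It then binds a paired motif near its target genes, whose products halt division (Cdkn1a, Btg2), feed back on p53 (Mdm2, Ccng1), repair DNA (Polk) or promote death (Bbc3 and Pmaip1 at the mitochondrion, Perp at the cell membrane). Male germ cells of the fetal testis pass through a period of apoptosis as they stop dividing, which is the subject of the series. The libraries measured transcripts, not p53 protein or DNA damage.

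At E12.5 there were 2847 barcodes and at E13.5 there were 2992, of which 24 were present in both. The median germ cell had 23502 UMIs in the first and 21887 in the second. Scrublet, which scores barcodes for likeness to simulated cell pairs, called 14 and 18 germ cells doublets, and none of them was target-rich. Of the barcodes in both tables, 1 was target-rich at E12.5 and 0 at E13.5. The germ markers of the filter (Dazl, Pou5f1, Dppa3 and Dppa5a) took a median of 0.646% of UMIs in target-rich cells at E12.5, against 0.586% in the remaining germ cells, and 0.735% against 0.686% at E13.5, both above the 0.2% that the filter required.

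The motif p53 binds could be read in the promoters of some rule genes, from 250 bases before to 50 after a transcript start (RefSeq, GRCm38.p6). Where several starts were listed for a gene, the first listed was used, so other starts of the same gene were not searched. It was searched on both strands as the p53 response element consensus without a spacer, with its core bases required and up to 3 mismatches allowed, and a match is a description of letters only. Promoters were given for 16 of the 20 genes, all but Zmat3, Perp, Pmaip1 and Trp53inp1. A match stood in 5 of them, against 1.4% of 27025 promoters, and 2 had 1 mismatch or fewer, against 0.0666%. Of 35 promoters of p53 targets outside the rule, 2 held a match, those of Zfp365 and Trp73, both with 2 mismatches. The sequences below are the 5 matches of the rule genes, with Zfp365, a zinc finger gene, added for its match and its transcript level after both had been seen. They run 5′ to 3′ on the gene's strand with the match in capitals. The Aen match begins 10 bases after the start, and the start used for Bbc3 lies inside the full span of that gene.
Cdkn1a, chr17:29090908-29090967, plus strand, 1 mismatch: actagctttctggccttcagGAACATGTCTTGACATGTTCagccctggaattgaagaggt
Ccng1, chr11:40755442-40755501, minus strand, 1 mismatch: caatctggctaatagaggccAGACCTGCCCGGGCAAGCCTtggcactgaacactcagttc
Bbc3, chr7:16309466-16309525, plus strand, 3 mismatches: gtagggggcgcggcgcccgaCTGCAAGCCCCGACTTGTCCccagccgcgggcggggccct
Tigar, chr6:127109726-127109785, minus strand, 3 mismatches: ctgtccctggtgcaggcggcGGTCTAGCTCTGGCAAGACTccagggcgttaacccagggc
Aen, chr7:78895937-78895956, plus strand, 3 mismatches: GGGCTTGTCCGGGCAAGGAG
Zfp365, chr10:67912686-67912745, minus strand, 2 mismatches: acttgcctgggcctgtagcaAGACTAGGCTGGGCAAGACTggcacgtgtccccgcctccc

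Members by the rule are described first. Over germ cells the median 20-gene sum was 15.7 UMIs per 10000 in the E12.5 library and 12.9 in the E13.5 library, and the threshold of 10 lay on the low side of both distributions. Rps27l, a ribosomal protein paralog that p53 is known to induce, reached 10 per 10000 by itself in 73.2% of members at E12.5 and in 45.5% at E13.5. It stood at 1205 CPM (UMIs per 1000000) in E12.5 members and 640 CPM in the other germ cells, and at 1006 and 562 CPM at E13.5. Rps27l lies on chromosome 9 (66944624 to 66949522, GRCm38.p6, protein coding), and its counts are uncertain where reads could also map to its paralog Rps27. The 5 genes proposed as markers ranged widely. Like Rps27l, they are part of the sum that chose members, so their ratios and detection here are a description. Cdkn1a had 2028 UMIs in E12.5 members (35.2 CPM) and 2105 in E13.5 members (43.3 CPM), and was detected in 42.1% and 51.8% of them. Phlda3 had 1192 and 327 UMIs (20.7 and 6.73 CPM), Btg2 915 and 568, and Bbc3 448 and 174. Plk2, a polo-like kinase, had 153 and 67 UMIs (2.65 and 1.38 CPM). In the other germ cells Plk2 had 0 UMIs at E12.5 and stood at 1.09 CPM at E13.5. The E13.5 ratio of Plk2 was thus 1.27, with an interval of 0.666 to 2.66 that includes 1. For Cdkn1a, Btg2, Bbc3 and Phlda3 the E13.5 ratios of members to other germ cells were 1.53, 1.58, 2.59 and 5.68. In the same order the E12.5 ratios were 3.56, 1.87, 3.30 and 10.99. At least 1 of the 5 was detected in 67.6% of E12.5 members and 34.3% of other germ cells, and in 67.7% and 51.5% at E13.5. None was detected in 775 and 668 members.

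**Figure D1:**
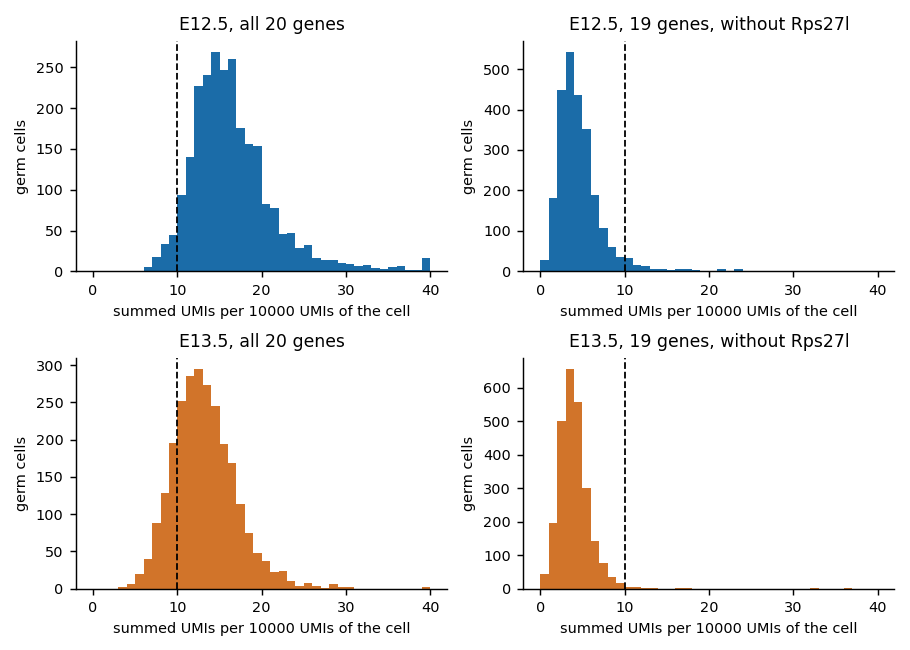
Histograms of germ cells (vertical axis, number of cells) by summed UMIs per 10000 UMIs of the cell (horizontal axis), for all 20 genes (left) and without Rps27l (right), at E12.5 (top) and E13.5 (bottom). The dashed line is the threshold of 10, and the last bar also holds all higher values. With 20 genes 2392 and 2069 cells lie at or above the line, and without Rps27l 113 and 21.

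The threshold fell within a continuous range. At E12.5, 45 cells lay between 9 and 10 per 10000 and 94 between 10 and 11, with Cdkn1a at 9.0 and 7.20 CPM and the 19 genes together at 2.56 and 2.63 per 10000. At E13.5, 196 and 252 cells lay just outside and just inside, with Cdkn1a at 31.9 and 36.0 CPM. The lowest member had 10.0 per 10000 in either library, and the highest other germ cell 9.98 at E12.5 and 10.0 at E13.5.

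Beyond the rule genes, few genes differed in the same direction in both libraries. In the E12.5 library 0.893% of 9965 genes at 2 CPM or more in the other germ cells were at least 1.5-fold higher in members with an interval that excludes 1, and 1.3% were lower. In the E13.5 library these shares were 2.2% and 5.36% of 10223 genes. A level of 10 CPM in the other germ cells of both was reached by 6250 genes outside the rule, of which 0 (0%) were at least 1.5-fold higher in members of both libraries with intervals that exclude 1, and 1 (0.016%), the meiotic gene Tex12, was lower. Tex12 stood at 7.10 CPM in members and 11.8 CPM in other germ cells at E12.5, and at 7.97 and 13.4 CPM at E13.5. Of the p53 targets outside the rule, 0 of 28 at 2 CPM or more were 1.5-fold higher at E12.5, beside 0.893% of all genes, and 3 of 28 at E13.5, beside 2.2%. Those 3 were Ak1 (6.43 and 2.08 CPM), Crip2 (42.8 and 26.2 CPM) and Gls2, a glutaminase (8.38 and 4.64 CPM), while below that level Dcxr was higher (ratio of 2.67). Of regulators at 2 CPM or more, 2 of 21 passed the fold at E12.5, beside 0.893% of all genes. These were Chek2, a checkpoint kinase, and Cdkn2a, which encodes the Mdm2 inhibitor Arf (1.56 and 1.71). At E13.5 it was 1 of 21, Trp53 (1.53), beside 2.2%, while Trp63 was higher below that level (2.17). The targets' median log2 ratio was 0.13 in the first library and 0.01 in the second, beside -0.02 over all genes at that level in either library. When each of the 20 genes was left out in turn and as many cells were taken by the other 19, the left-out gene was at least 1.5-fold higher in both libraries for 3 of 20: Bbc3, Ccng1 and Phlda3. Rps27l itself was then at 1189 against 1079 CPM at E12.5 and 933 against 911 CPM at E13.5. Of the other proposed markers, left out in the same way, Cdkn1a had ratios of 2.57 at E12.5 and 1.02 at E13.5. Btg2 had 1.46 and 0.977, and Plk2 had 5.66, from 1 UMI in the remaining cells, and 1.15.

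At E13.5 division transcripts were higher in members and later germline transcripts lower. S phase transcripts summed to 4087 CPM against 3002 CPM in other germ cells (ratio 1.36, 1.35 to 1.38), with 8 of 41 genes at least 1.5-fold higher and 0 lower, beside 2.2% and 5.36% of all genes. The G2/M sum was 8534 against 6981 CPM (1.22, 1.21 to 1.23), and Mki67, a proliferation antigen, stood at 105 and 67.4 CPM. Genes of the later germline programme summed to 1628 against 2118 CPM (0.769, 0.757 to 0.780), with 7 of 26 at least 1.5-fold lower, beside 5.36% of all genes, and 0 higher. Nanos2, which marks entry into the male pathway, stood at 21.4 and 47.0 CPM, and the division inhibitor Cdkn1b at 8.63 and 13.2 CPM. Male germline and Nodal genes as a list went the other way from Nanos2, with 602 against 503 CPM (1.20, 1.16 to 1.23). Of these, 5 of 11 were at least 1.5-fold higher and 1 lower. Division inhibitors outside the rule, pocket proteins and G1 cyclins had 2 of 14 higher and 2 lower. Trp53, which encodes p53, stood at 171 and 112 CPM (1.53, 1.43 to 1.63). At E12.5 the S phase ratio was 0.931 (0.914 to 0.948) and that of Trp53 1.03 (0.938 to 1.14). The E13.5 members were also deeper, with a median of 22320 against 19589 UMIs, and the part of depth in these ratios was not tested.

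Red blood cell transcripts differed between these groups at E13.5 through a single barcode. Erythroid markers summed to 22.9 CPM in members and 1214 CPM in other germ cells, and 1 barcode among the others held 89.9% of all erythroid marker UMIs of the germ cells. Without it the sums were 22.9 and 23.9 CPM, and the S phase ratio was 1.36.

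The target-rich cells differed from the remaining germ cells of their library in named p53 targets. These values chose the cells and are given as a description. Plk2 stood at 41.1 CPM in the 113 target-rich cells of E12.5 and at 0.976 CPM in the other 2381 germ cells, so that 63.4% of all Plk2 UMIs of E12.5 germ cells came from 4.53% of the cells. At E13.5 it stood at 32.0 and 1.13 CPM, from 12 target-rich UMIs of which 33.3% came from 1 cell. Plk2 was seen in 43 target-rich cells at E12.5 (38.1%) and in 2.23% of the rest, and after thinning every cell to 5000 UMIs in 15% and 0.714%. The median depth was lower in target-rich cells, at 20398 against 23582 UMIs.

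Genes that halt division came next. Cdkn1a, the cyclin-dependent kinase inhibitor p21, stood at 210 CPM in target-rich cells and 27.1 CPM in the rest at E12.5, and at 245 and 39.4 CPM at E13.5. Btg2, an antiproliferative co-regulator, stood at 95.8 and 12.3 CPM at E12.5 and at 88.0 and 10.5 CPM at E13.5, where 1 cell carried 39.4% of the target-rich UMIs. Phlda3, a repressor of Akt signalling, stood at 159 and 14.3 CPM at E12.5 and at 141 and 4.91 CPM at E13.5. Cdkn1a was the most abundant of the 19 genes in 33 of the 113 cells at E12.5, Mdm2 in 24, Ccng1 in 16, Phlda3 in 15 and Aen in 14.

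Death genes of the rule were split. Bbc3, which encodes the BH3-only protein Puma, stood at 40.7 and 6.22 CPM at E12.5 and at 34.7 and 3.0 CPM at E13.5, where 38.5% of its target-rich UMIs came from 1 cell. Perp, a membrane protein of p53-dependent death, stood at 11 and 2.75 CPM at E12.5 and rested on 1 UMI at E13.5. Pmaip1, which encodes Noxa, stood at 13.6 and 7.77 CPM at E12.5 and at 50.7 and 43.6 CPM at E13.5, an interval of the ratio of 0.698 to 1.82. Of its E13.5 germ cell UMIs, 0.742% lay in target-rich cells, which were 0.824% of the cells.

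Feedback, repair and metabolic genes had ratios from 1.29 to 8.21 at E12.5. Mdm2, the ubiquitin ligase of p53, stood at 198 and 61.1 CPM at E12.5 and at 147 and 66.7 CPM at E13.5. Ccng1, cyclin G1, stood at 156 and 29.2 CPM and at 144 and 20.9 CPM. Polk, a translesion DNA polymerase, stood at 17.8 and 3.55 CPM and at 18.7 and 3.76 CPM. Sesn2, a stress sensor, was at 56.4 and 16.5 CPM at E12.5, while its paralog Sesn1 was at 7.63 and 5.21 CPM, with an interval of the ratio of 0.857 to 2.36, and at 5.33 and 6.76 CPM at E13.5 (0.789). Tigar, which restrains glycolysis, stood at 130 and 100 CPM at E12.5 and at 69.3 and 48.5 CPM at E13.5. Eda2r, a receptor, had 28 target-rich UMIs and a ratio of 8.21 in the first library. In the second it had 0 target-rich UMIs and 0.823 CPM in the rest, and the interval of the ratio reached 12.4. The remaining genes Aen, Zmat3, Ei24, Trp53inp1 and Gdf15 had ratios from 1.94 to 4.93 at E12.5 and from 1.89 to 11.1 at E13.5.

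In GRCm38.p6 the 5 proposed markers are protein-coding genes on 4 chromosomes. Plk2 lies on chromosome 13 (110395044 to 110400844), Phlda3 and Btg2 on chromosome 1 (135766085 to 135769134 and 134074865 to 134079155), Cdkn1a on chromosome 17 (29090979 to 29100722) and Bbc3 on chromosome 7 (16308398 to 16318334).

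**Figure D2:**
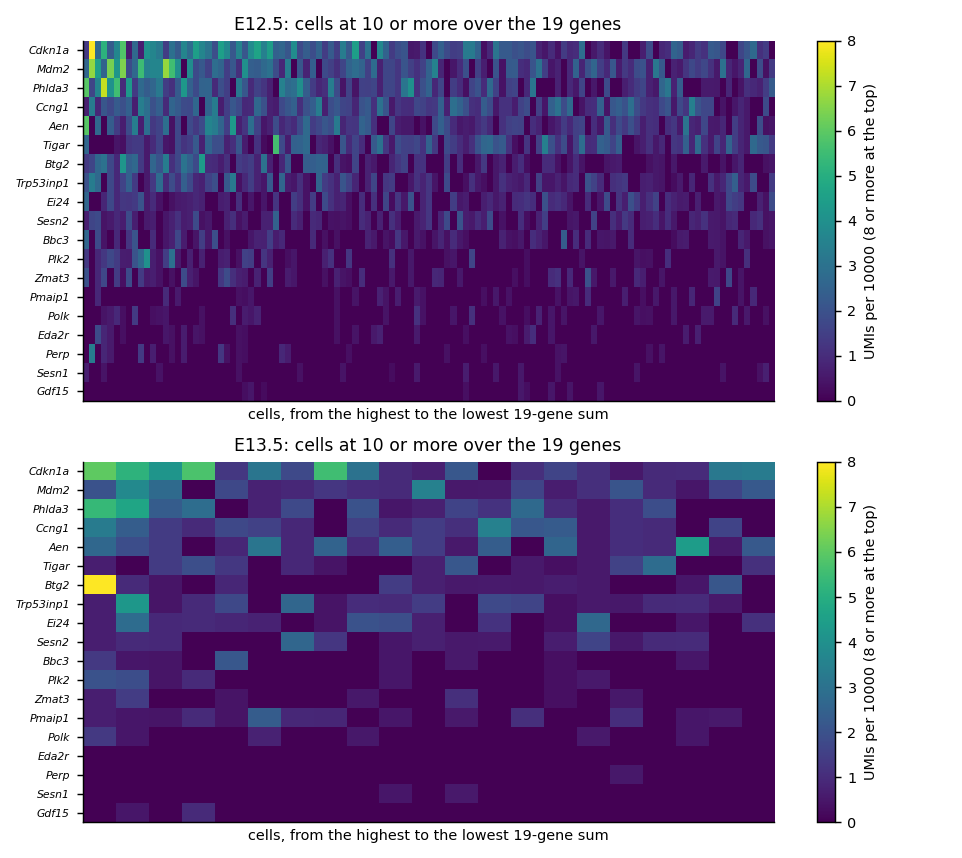
UMIs per 10000 of each of the 19 genes (rows) in each target-rich cell (columns, from the highest to the lowest sum), at E12.5 (113 cells, top) and E13.5 (21 cells, bottom). The colour runs from 0 to 8 or more. A target-rich cell of either library had a median of 10 of the 19 genes detected, and the sum of these genes chose the cells.

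Single target-rich cells carried several of the genes. The 5 markers are among the 19 genes that chose these cells. Their higher detection than in the rest follows in part from that choice and is given as a description. At least 3 of the 5 markers were detected in 87 of 113 target-rich cells at E12.5 (77.0%) and in 7.85% of the remaining germ cells, and after thinning in 30.1% and 0.252%. At E13.5 these shares were 57.1% and 2.97%, and after thinning 9.52% and 0.0396%. All 5 were detected in 17 cells at E12.5 and in 5 at E13.5. Cells just under and just over the threshold differed in degree: at E12.5 the 36 cells between 9 and 10 per 10000 of the 19 genes had Plk2 at 5.40 CPM and Phlda3 at 68.9 CPM, and the 32 cells between 10 and 11 had 14.4 and 91.3 CPM.

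Each rule gene was also read in cells that it had not helped to choose. The same number of cells was taken by the sum of the other 18 genes. In both libraries 14 of the 19 left-out genes were then at least 1.5-fold higher with an interval that excluded 1. Between target-rich cells and the rest, 0.86% of 9647 genes at 2 CPM or more were higher in both libraries. The left-out genes were held to no such minimum. Gdf15, 1 of the 14, passed at E13.5 on 2 UMIs (11.1-fold, 1.28 to 44.0). Plk2 was 36.8-fold higher at E12.5 (26.4 to 51.8) and 28.3-fold at E13.5 (13.9 to 52.8). Phlda3 was 9.28-fold (8.15 to 10.5) and 23.3-fold higher (16.6 to 32.0), and Bbc3 5.51-fold (4.29 to 7.01) and 11.6-fold (6.03 to 20.3). The 5 genes that did not pass in both were Tigar (1.1 and 1.02), Pmaip1 (1.41 and 0.980), Sesn1 (1.14 and 0.789), Perp (4.0 and 5.36, the latter from 1 UMI) and Eda2r (7.46, and no UMI at E13.5). The left-out genes share cells and libraries, so these values are not independent of each other.

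**Figure D3:**
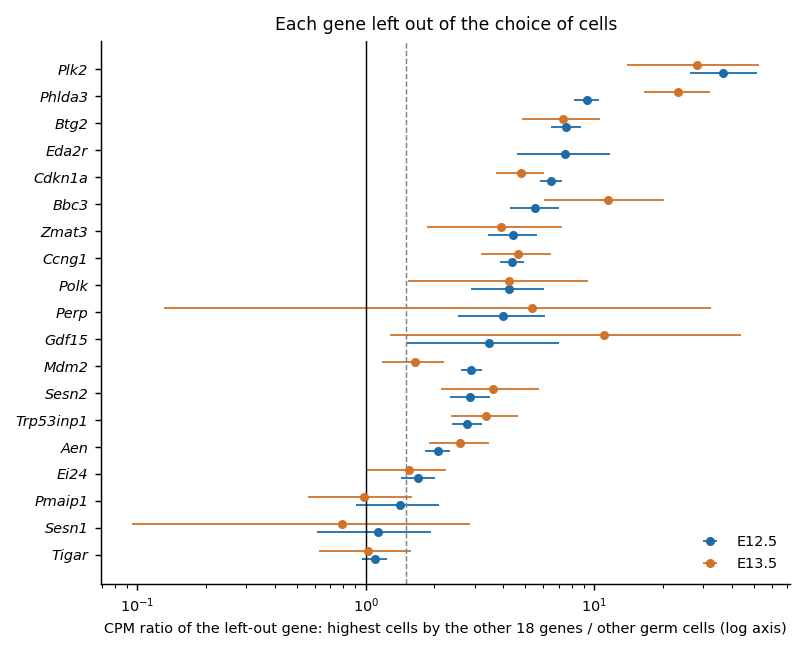
Ratio of CPM (log axis) of each left-out gene between the cells with the highest sum of the other 18 genes (113 at E12.5, 21 at E13.5) and the other germ cells, with exact 95% counting intervals. The solid line is 1 and the dashed line 1.5; Plk2 is highest at 36.8 and 28.3, while Tigar lies near 1. Eda2r at E13.5 has no UMI and no point.

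Each UMI was also put at random in 1 of 2 parts, and cells were chosen on the first part and read in the second. At E12.5, 126 cells reached the threshold over the 19 genes in the first part, and their median in the second part was 10.5 per 10000, against 3.95 in the remaining cells. Of these, 69 (54.8%) reached it again in the second part, as did 3.29% of the remaining cells. At E13.5, 41 cells were chosen, their median in the second part was 6.2 against 3.70, and 9 (22.0%) reached it again. Of the remaining E13.5 cells 1.32% reached it in the second part. Both parts hold the same 19 genes of the same cells, so the split shows only how far the sum repeats beyond counting error.

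Transcripts that the choice had not used were higher as well. Rps27l, outside the 19 genes, stood at 1645 CPM in target-rich cells and 1166 CPM in the rest at E12.5 (ratio 1.41, 1.37 to 1.46) and at 1288 and 927 CPM at E13.5 (1.39, 1.27 to 1.52). Its paralog Rps27 stood at 1037 and 1019 CPM (1.02, 0.977 to 1.06) and at 896 and 1003 CPM (0.894, 0.800 to 0.995). Of p53 targets outside the rule at 2 CPM or more, 16 of 29 were at least 1.5-fold higher at E12.5 and 0 lower, against 3.67% higher and 1.73% lower of 10104 genes. At E13.5 the count was 11 of 28 higher and 0 lower, against 3.36% and 1.53% of 10145 genes. The list's median log2 ratio was 0.75 and 0.70 in the 2 libraries, beside -0.01 and 0.02 over all genes.

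Of the 44 listed targets, with no minimum level set, 13 were past the fold in both libraries. Another 10 passed at E12.5 but not at E13.5, 1 at E13.5 but not at E12.5, 18 in neither, and 2 were not measured in both. Of all genes at 2 CPM or more in the rest, 0.86% were higher in both libraries. That share keeps a minimum which the count of the 44 targets does not. Differences between the libraries in these calls were not tested. Dcxr, a carbonyl reductase, was at 25.4 and 3.68 CPM at E12.5 (6.92-fold, 5.11 to 9.26) and at 42.7 and 2.09 CPM at E13.5 (20.4-fold, 11.3 to 34.5). Zfp365, whose promoter is shown above, was at 8.06 and 0.383 CPM (21.0-fold, 10.8 to 40.7) and at 10.7 and 0.583 CPM (18.3-fold, 4.72 to 51.3). Lpin1, a phosphatidate phosphatase, was at 11.9 and 2.70 CPM and at 29.3 and 3.05 CPM. Slc19a2, a thiamine transporter, was at 14.4 and 2.70 CPM and at 10.7 and 1.65 CPM, and Slc4a11, a membrane transporter, at 11 and 3.69 CPM and at 21.3 and 3.55 CPM. Ddit4, an inhibitor of mTORC1, was at 95 and 27.7 CPM and at 173 and 67.3 CPM. Fam212b was at 2.12 and 0.0523 CPM, from 3 UMIs in the rest (40.6-fold, 7.89 to 261), and at 5.33 and 0.120 CPM from 2 UMIs in target-rich cells.

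Death and repair targets were among them. Apaf1, the scaffold of the apoptosome, was at 19.5 and 8.35 CPM at E12.5 (2.34-fold, 1.69 to 3.17) and at 21.3 and 4.55 CPM at E13.5 (4.69-fold, 2.01 to 9.39). Tnfrsf10b, a death receptor for Trail, was at 22.0 and 8.22 CPM and at 16.0 and 4.68 CPM. Bax, the pore-forming effector of mitochondrial death, did not reach 1.5-fold, with 697 and 497 CPM (1.4, 1.33 to 1.47) and 747 and 565 CPM (1.32, 1.17 to 1.49). Of pro-apoptotic genes outside the rule, 3 of 22 were higher at E12.5 (Apaf1, Bad and Dffb), beside 3.67% of all genes. At E13.5 it was 2 of 21 (Apaf1 and Endog), beside 3.36%. In either library 0 were lower, beside 1.73% and 1.53% of all genes. Ercc5, a nuclease of nucleotide excision repair, was at 17.0 and 6.29 CPM and at 16.0 and 5.81 CPM, while the damage sensors Ddb2 and Xpc were at ratios of 0.990 and 1.08 at E12.5 and 2.59 and 1.47 at E13.5, all with intervals that include 1. Ak1, an adenylate kinase, Crip2, a LIM protein, and Gtse1, a G2 regulator that binds p53, were past the fold in both libraries with ratios of 1.68, 1.76 and 2.26 at E12.5 and 7.33, 1.88 and 2.13 at E13.5.

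At E12.5 alone the fold was passed by Abhd4 (2.19), Cpt1c (6.08), 9030617O03Rik (24.3), Fas (12.2), Fdxr (1.68), Gadd45a (2.11), Ppm1d (2.24), Rap2b (2.66), Rprm (5.29) and Trp73 (6.64). Fas and Trp73, a death receptor and a p53 relative, rested on 2 and 3 UMIs in target-rich cells. Pidd1, a death-domain adaptor, passed it at E13.5 (4.16) and stood at 1.58 at E12.5 (0.940 to 2.52).

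**Figure D4:**
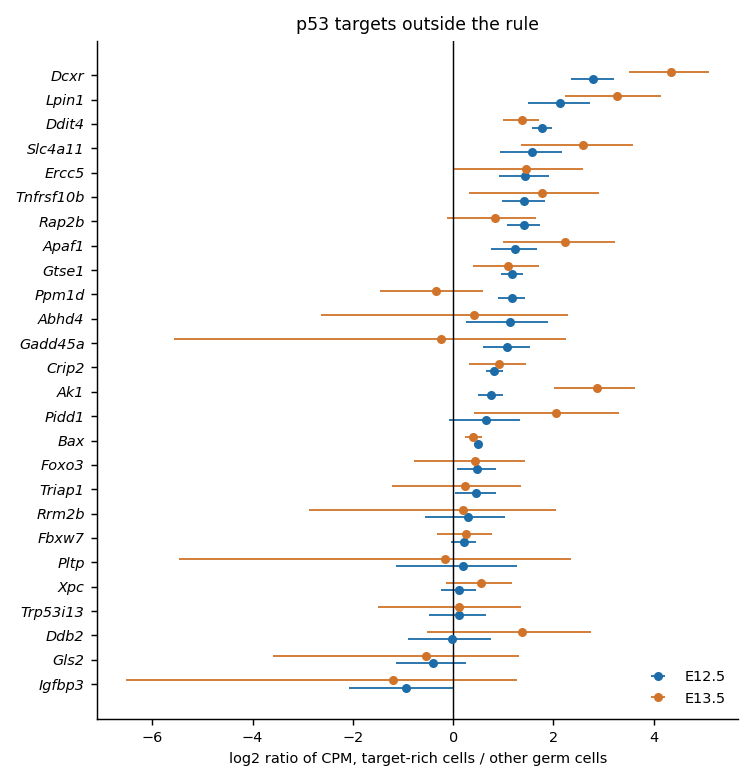
Log2 ratio of CPM between target-rich and other germ cells for p53 targets outside the rule with 2 CPM or more in the other germ cells of both libraries and at least 1 UMI in target-rich cells of both, with exact 95% counting intervals. Dcxr and Lpin1 lie highest at E12.5, and Bax lies between 0 and 1 in both libraries.

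The level of the listed targets moved with the 19-gene sum below the threshold too. At E12.5 the list summed to 855 CPM in cells under 2 per 10000 of the 19 genes, 938 CPM between 4 and 6, 1210 CPM between 8 and 10 and 1858 CPM in the 41 cells at 15 or more. At E13.5 it summed to 928, 992, 1222 and 2622 CPM, the last over 4 cells. Rps27l went from 1103 to 1774 CPM over the same range at E12.5 and from 893 to 1377 CPM at E13.5. The order was the same in every step for both quantities, and the bins share a library. Bin sums over shares of UMIs also share the cells' totals.

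**Figure D5:**
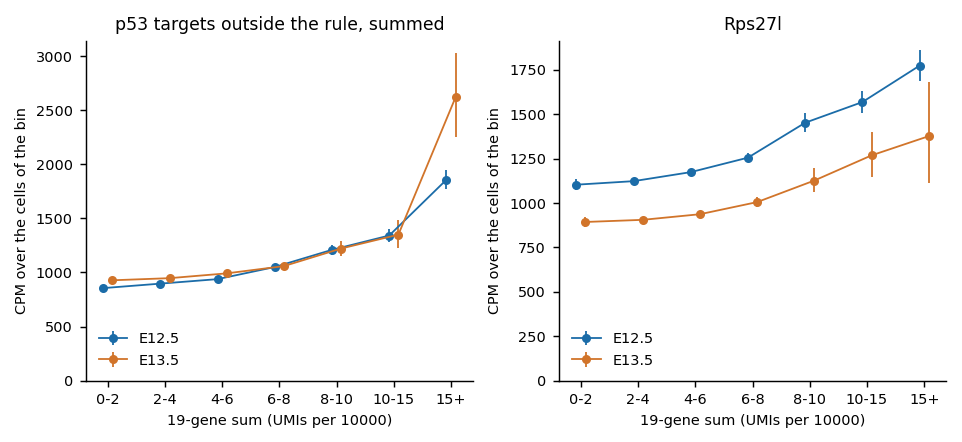
Summed CPM of the p53 targets outside the rule (left) and CPM of Rps27l (right) over germ cells grouped by the 19-gene sum in UMIs per 10000, with exact 95% counting intervals, for E12.5 (blue) and E13.5 (orange). The list rises from 855 to 1858 CPM at E12.5 and from 928 to 2622 CPM at E13.5, where the last bin holds 4 cells.

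Few genes of the list of Trp53 and its regulators were past the fold in target-rich cells. Trp53 stood at 207 and 201 CPM at E12.5 (1.03, 0.941 to 1.13) and at 229 and 160 CPM at E13.5 (1.43, 1.15 to 1.77). Mdm4, the partner of Mdm2, was at 117 and 63.6 CPM at E12.5 (1.84, 1.62 to 2.08) and at 98.7 and 61.7 CPM at E13.5 (1.60, 1.12 to 2.21). Rchy1, a ubiquitin ligase of p53, was at 54.3 and 29.1 CPM at E12.5 (1.86). Mdm4 and Rchy1 were the only ones past the fold. They made 2 of 22 regulators at E12.5, beside 3.67% of all genes higher, and Mdm4 1 of 21 at E13.5, beside 3.36%.

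Across the table, 83 of the 9647 genes with 2 CPM or more in the rest (0.86%) were at least 1.5-fold higher in target-rich cells of both libraries and 4 (0.0415%) lower. Of the genes higher at E12.5, 25.7% were also higher at E13.5, and of those higher at E13.5, 24.9% were higher at E12.5. For lower genes these shares were 2.40% and 2.72%. After Dcxr, the highest by the weaker interval bound were Cald1, an actin-binding caldesmon (6.85-fold and 9.19-fold), Gpx3, a glutathione peroxidase (3.87 and 7.25), and Cd81, a tetraspanin (92.4 against 15.2 CPM and 160 against 42.4 CPM). Then came Lpin1, the ciliary gene Wdr35 (5.54 and 5.28), the RNA helicase Dhx16 (151 against 39.5 CPM and 85.3 against 29.2 CPM) and Ddit4. The rest of the first 15 were Bscl2, Slc4a11, Rnf169, Apaf1, Cox6b2, Cbs and Ctc1, with ratios from 2.24 to 2.98 at E12.5 and from 2.19 to 6.04 at E13.5. Rnf169 acts in the response to DNA breaks and Ctc1 at telomeres.

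The 4 lower genes were Hdgfrp3, Fbxl12, Ccnd1 and Nfkbia. Ccnd1, cyclin D1, had 3 UMIs in target-rich cells at E12.5 (1.27 against 4.65 CPM, 0.273, 0.0560 to 0.808) and 0 at E13.5, where the rest stood at 10.3 CPM. Nfkbia, an inhibitor of NF-kappaB, stood at 11.4 and 17.3 CPM and at 5.33 and 24.0 CPM.

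The S phase sum had a ratio of 0.954 at E12.5 (0.937 to 0.972) and 1.05 at E13.5 (0.995 to 1.1), and the G2/M sum 0.928 (0.915 to 0.941) and 1.03 (0.995 to 1.07). In cells thinned to 5000 UMIs the S phase median was 48.0 per 10000 in target-rich cells and 54.0 in the rest at E12.5, and 38.0 and 34.0 at E13.5. In cells of 15 or more per 10000 of the 19 genes the G2/M sum was 8100 CPM in the first library (41 cells). In the second it was 6972 CPM, over 4 cells, with an interval of 6361 to 7624. Cells of 8 to 10 had 9375 and 9257 CPM, and cells under 2 had 8858 and 7208 CPM. The sum thus did not go in a single direction over the bins. The top bin's interval in the second library includes the value of the lowest bin. Of 51 G2/M genes at 2 CPM or more in the rest, 2 were higher and 1 lower at E12.5, beside 3.67% and 1.73% of all genes. At E13.5 it was 4 higher and 1 lower, beside 3.36% and 1.53%. With no minimum level, 2 besides Gtse1 were past the fold in both libraries, Psrc1 and Ckap2. Psrc1, a spindle protein, was at 19 and 1.24 CPM at E12.5 (15.4-fold, 10.4 to 22.7). At E13.5 it was at 13.3 and 0.926 CPM (14.4-fold, 4.49 to 35.7), from 5 target-rich UMIs. Ckap2 had ratios of 1.60 and 1.70. Rb1, the retinoblastoma protein, stood at 28.0 and 16.3 CPM and at 45.3 and 22.2 CPM. Mki67 stood at 173 and 180 CPM at E12.5 and at 112 and 98.1 CPM at E13.5.

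Later germline genes summed to 1047 and 1116 CPM at E12.5 (0.938, 0.901 to 0.977) and to 1446 and 1714 CPM at E13.5 (0.843, 0.774 to 0.918). In the first library 0 of 23 were past the fold, beside 3.67% of all genes higher and 1.73% lower. In the second 1 of 25 was higher and 2 lower, beside 3.36% and 1.53%. Beside the same shares, pluripotency genes had 0 of 21 higher and 1 lower at E12.5, and 0 and 0 at E13.5. Sox2 was at 129 and 123 CPM and Nanog at 33.5 and 33.2 CPM at E12.5, and Ddx4, a germ cell RNA helicase, at 69.1 and 85.2 CPM. The division inhibitor Cdkn1c was at 18.7 and 19.8 CPM at E12.5 and at 64.0 and 79.7 CPM at E13.5, Cdkn1b at 2.12 and 2.67 CPM and, from 0 target-rich UMIs, 0 and 9.48 CPM. Stra8, a meiotic entry gene, was at 8.90 and 6.46 CPM at E12.5 and had 0 target-rich UMIs at E13.5. At E13.5 Kit, the stem cell factor receptor, was at 32.0 and 18.4 CPM (1.74, 0.897 to 3.06) and Nanos2 at 10.7 and 25.9 CPM (0.411, 0.112 to 1.06). Early germ cell genes had 0 of 14 past the fold at E12.5, beside 3.67% of all genes higher, and 4 of 14 higher at E13.5, beside 3.36%. These were Rhox6 (117 and 30.6 CPM), Rhox9 (141 and 50.1 CPM), Tfap2c (32.0 and 10.6 CPM) and Prdm1 (45.3 and 25.2 CPM), named after their values were seen. Rhox6 and Rhox9 are paralogs and their separate counts are uncertain.

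Markers of other cell types and of cell quality are given for the target-rich cells; their part in the results above was not tested. Macrophage, interstitial and Leydig markers summed to between 0 and 2.67 CPM in them, and erythroid markers to 0.848 CPM in the first library and 24.0 CPM in the second, where the rest stood at 229.8 CPM with the single barcode described above included. Sertoli markers summed to 12.7 and 16.0 CPM and endothelial markers to 112 and 48.0 CPM, against 14.2 and 11.4 CPM and 96.4 and 36.8 CPM in the rest. Surface epithelium and mesonephric markers summed to 394 and 381 CPM at E12.5 and to 373 and 313 CPM at E13.5 (a ratio of 1.19 with an interval that excludes 1 and reaches 1.41). Nearly all of these UMIs were of Epcam, at 391 and 378 CPM and at 371 and 308 CPM, while Krt19 and Pax2 had 0 target-rich UMIs. The median mitochondrial share was 3.78% against 3.86% at E12.5 and 4.28% against 4.68% at E13.5. Summed ribosomal protein transcripts had ratios of 0.994 and 0.979. Anti-apoptotic genes had 0 of 6 past the fold in either library, beside 3.67% and 3.36% of all genes higher.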

How the data were processed

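For each stage the authors deposited raw UMI counts per gene and barcode; the labels' protocols name 10x v2 chemistry. Reads were processed with Cell Ranger (no version) on mm10 (GRCm38), per the submitters' processing notes. The annotation is not stated in the sources read here. Germ cells had 500 or more genes, 5000 or more UMIs, under 10% mitochondrial UMIs and at least 0.2% of UMIs from Dazl, Pou5f1, Dppa3 and Dppa5a. The members and gene lists were chosen with earlier results of these data known, and the target-rich subset after its values were seen. Counts were summed over cells and expressed as CPM; ratios have conditional binomial (Clopper-Pearson) 95% intervals and shares exact binomial ones. A gene was called higher or lower at 1.5-fold with an interval that excludes 1. Scripts ran in Python 3.11.15 with numpy 2.4.6, scipy 1.17.1, pandas 2.3.3 and scanpy 1.11.5 (Scrublet, expected rate 6%, calls kept), and the intervals were tested on simulated data. The simulated counts had counting error only and no spread between cells, so that check does not cover such spread. Named genes were all rule genes; p53 targets and regulators past the fold in a library, with Trp53, Bax and Mdm4; the 15 highest and 10 lowest genes by the weaker library's bound, leaving out predicted, ribosomal protein, haemoglobin and mitochondrial genes; from every other list, up to 2 genes per direction past the fold in both libraries; and a fixed set of germ and division markers. For thinned values 5000 UMIs were drawn per cell without replacement. Alternatives are given in the closing section.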

Additional observations from a re-analysis of the deposited data

Results flagged for a closer look

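Several list sums had ratios on opposite sides of 1 in the 2 libraries, each with a counting interval that excludes 1. The difference between the libraries was not tested, and most ratios lie within 10% of 1. For members by the rule against other germ cells, at E12.5 and E13.5, they were 0.931 and 1.36 for S phase genes, 0.935 and 1.07 for meiotic entry and axis genes, 0.942 and 1.06 for glycolysis genes, and 1.03 and 0.968 for ribosomal protein genes. For target-rich cells they were 0.965 and 1.09 for DNA break and crosslink repair genes, 0.989 and 1.07 for heat shock genes, and 0.980 and 1.04 for ribosome biogenesis genes.

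Barcodes that the germ filter left out also held cells at the threshold of the 19 genes. Of those with 1000 or more UMIs, 10 per 10000 was reached at E12.5 by 22 of 162 (13.6%, with an exact interval of 8.71 to 19.8%) and in the E13.5 library by 25 of 229 (10.9%, 7.19 to 15.7%), against 4.53% and 0.824% of germ cells. Their median depth was 2483 and 2870 UMIs, at which few UMIs reach the threshold. Their pooled 19-gene level was 5.75 and 5.84 per 10000, against 4.62 and 4.0 in germ cells. Among barcodes with 10% or more mitochondrial UMIs, 4 of 49 and 5 of 118 reached it.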

How the results depend on the processing

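No paired analysis was possible because each stage has 1 library. Of 189 values recomputed under alternatives, 131 stayed within the counting interval or within 1.5-fold of the main count and 58 moved; causes were not tested unless the alternative's construction gives them. For members by the rule, at a threshold of 8 the members were 99% and 93.9% of germ cells, the E13.5 median of p53 targets outside the rule was -0.0864, and 5 genes were higher and 6 lower in both libraries; at 15 these were 57.0% and 28.2%, 0.27 and 0 lower. With 2000 genes and under 5% mitochondrial UMIs the E13.5 share was 85.1% and the median 0.19. Without Pmaip1 it was 77.0%, with 0 genes lower. On cells thinned to 5000 UMIs the shares were 87.8% and 76.7%, with 0 lower. Other denominators gave 1 higher and 3 lower (no mitochondrial or ribosomal protein genes) and 3 lower (depth reweighting); minimum levels gave 5 higher and 7 lower (2 CPM) and 0 lower (50 CPM), and a list with no minimum a median of 0.10.

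Leaving Rps27l out of the rule, chosen after seeing the data, gave shares of 4.53% and 0.824%, medians of 0.75 and 0.70, 41 genes higher and 3 lower at 10 CPM, and 14 left-out genes. For these target-rich cells a threshold of 8 gave 8.34% and 2.79%, medians of 0.57 and 0.42 and 49 genes higher, and a threshold of 15 gave 1.64% and 0.157% with medians of 0.99 and 1.85. On cells thinned to 5000 UMIs, where 5 UMIs make a member, the shares were 12% and 6.51%, the medians 0.48 and 0.22, with 9 genes higher, 2 lower and 6 left-out genes. Without Pmaip1, 2 genes were lower, and with equal weight per cell 9 were. Minimum levels gave 41 higher (10 CPM), and 8 higher and 0 lower (50 CPM). The list median was 1.05 at E12.5 with no minimum, and 0.62 and 0.44 at 10 CPM. Leaving out cells with an unequal autosome share gave 3.65% at E12.5, medians of 0.66 and 0.37 and 36 genes higher. With 21 target-rich cells at E13.5, depth limits the smaller ratios there.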

Other observations

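The UMIs of each germ cell were also added up by chromosome, using genes under 500 CPM and none of the rule, listed p53 target, germ marker or erythroid genes. The limits below were set after seeing the data. Added over cells, each of the 19 autosomes took the same share of UMIs in target-rich cells as in the rest, within a ratio of 0.975 to 1.04 at E12.5 and 0.957 to 1.04 at E13.5. In single cells, 24 of 113 target-rich cells at E12.5 (21.2%, exact binomial interval 14.1 to 29.9%) had at least 1 autosome at 1.3 times or more, or 0.75 times or less, the share of the median germ cell. Among the remaining germ cells 34 of 2381 did (1.43%, 0.991 to 1.99%). At E13.5 these were 4 of 21 (19%, 5.45 to 41.9%) and 16 of 2528 (0.633%, 0.362 to 1.03%).

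By 19-gene sum, such cells at E12.5 were 1.42% of 211 under 2 per 10000, 0.605% of 991 between 2 and 4, 1.27% of 788 between 4 and 6, 3.38% of 296 between 6 and 8, 5.26% of 95 between 8 and 10, 9 of 72 between 10 and 15, and 36.6% of 41 at 15 or more (22.1 to 53.1%). At E13.5, in the same order, they were 0.830% of 241, 0.173% of 1159, 0.931% of 859, 1.83% of 219, 0 of 50, 1 of 17 and 3 of 4. The lowest bin was above the next one in either library, and the E13.5 bin of 8 to 10 held none, which allows a share of up to 7.11% (exact upper bound). Target-rich cells at E12.5 were shallower (median 20398 against 23582 UMIs), and in cells with 10000 or more UMIs the shares were 19.4% and 1.24%, and at E13.5 4 of 20 and 0.406%. Over genes under 100 CPM they were 26.9% and 2.92%, and 7 of 20 against 3.08%. With limits of 1.4 and 0.6 they were 7.96% and 0.630% at E12.5, and 1 of 21 against 0.198% at E13.5. Thinned to 5000 UMIs with those limits they were 10.6% and 1.72% at E12.5, and 9.52% and 1.11% at E13.5.

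The low shares had a median of 0.682 times the usual and the high ones 1.35 in target-rich cells at E12.5, and 10 of the 24 cells had more than 1 such autosome. The 24 cells had a median of 19 per 10000 of the 19 genes, against 12 in the other 89, with median depths of 17401 and 20650 UMIs, and Plk2 at 82.2 and 31.1 CPM. At E13.5 Plk2 was at 122 CPM in the 4 cells and 12.9 CPM in the other 17, from 12 UMIs in all. Of these UMIs, 3 and 4 lay in the cells with the highest 19-gene sums, each among the 4. Plk2 is also 1 of the genes that chose the target-rich cells. The chromosomes' DNA content was not measured, these cells' autosome shares are transcript shares, and the cause of the unequal shares was not tested.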
